A study of Mus musculus with 14 samples.

Results

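The response of hepatoblasts to an uncoated plate was compared between cells carrying the isocitrate dehydrogenase mutant IDH1 R132C and cells carrying an empty vector. For each of 12393 genes the quantity of interest was the change from collagen to an uncoated plate in R132C cells minus the same change in vector cells, on the log2 scale. A negative value means that a rise was smaller, or a fall larger, with the mutant. The members were 8 of the 14 arrays of the series, chosen by their sample titles: 2 of vector cells on collagen, 2 of vector cells on uncoated plates, 2 of R132C cells on collagen and 2 of R132C cells on uncoated plates. Each array was hybridised with RNA from its own culture, per the series text. The remaining 6 arrays, all on collagen, held wild-type IDH1, wild-type IDH2 and IDH2 R172K and entered the model only to estimate the spread.

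All cells were hepatoblasts of wild-type mouse embryos of day 14, immortalised by growing them out at clonal density, and the vector and the IDH1 insert were in a doxycycline-inducible system. Doxycycline at 25 ng/mL was in the medium of the IDH1 experiments; whether the vector cultures received it is not given in the sources used here. Both kinds of cell were kept in the same medium with serum, epidermal growth factor, insulin-like growth factor II and insulin, and the uncoated plates, which the protocol names as its assay of hepatocyte differentiation, were held for at most 5 days. No wild-type IDH1 culture was grown on uncoated plates, so the R132C substitution and the added IDH1 as such cannot be told apart in anything given here. How many founder clones the cultures came from, and the species of the IDH1 insert, are not given in the sources used here.

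Hepatoblasts are the bipotent progenitors of fetal liver, which give rise to hepatocytes and to the cells that line bile ducts. Hepatocytes secrete plasma proteins and oxidise, conjugate and export foreign and endogenous compounds, and their programme depends on factors such as HNF4A, C/EBP and FOXA proteins. IDH1 makes 2-oxoglutarate from isocitrate in the cytosol, whereas the R132C enzyme reduces 2-oxoglutarate to 2-hydroxyglutarate, which inhibits many 2-oxoglutarate-dependent dioxygenases. Mutations of IDH1 and IDH2 are recurrent in cholangiocarcinoma, a cancer with features of bile duct cells, and the question behind the comparison was which parts of the response to the differentiation assay are smaller, alike or larger with the mutant.

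The labelled cell type was checked against its markers. The epithelial keratins Krt8, Krt18 and Krt19 had group means of log2 14.24 to 14.32, 14.02 to 14.15 and 13.61 to 13.95, and Hnf4a had 11.11 to 11.71. The fetal liver protein Afp lay at 9.24 to 11.52. Other markers of the lineage were low in these cells: Alb lay at 4.61 to 4.93, Dlk1 at 5.20 to 5.50 and Igf2 at 5.51 to 5.63, and the lower quartile of each array, used as a guide to background, was 4.72 to 4.81. Array medians were 134.9 to 148.3 intensity units, and replicate arrays of the 4 groups correlated at r = 0.996 to 0.998 across genes. Precision is limited by having 2 arrays in each group, and the median SE of the difference was 0.181.

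The uncoated plate raised a set of genes in vector cells that rose less, or were not called, in R132C cells, and no gene passed the test in the other direction. The difference between the plate responses passed in 31 of 12393 genes (0.25%; limma, Benjamini-Hochberg adjusted p under the threshold of 0.05), and it was negative in all 31. Every one of the 31 rose in vector cells, by log2 1.18 to 5.92, where 15.1% of all genes rose. Of them 20 also rose in R132C cells, where 13.6% of all genes rose, and the other 11 did not pass there. On the log2 scale the R132C response was a median of 24.0% of the vector response and at most 60.1% of it. The vector response enters the difference with a minus sign. Genes chosen by that difference therefore lean to large vector rises and to small R132C shares of them. Genes with a positive difference numbered 0 by limma (0%), against 310 with an unadjusted p under 0.05, beside 384 with a negative one. Over all genes the differences centred on zero, with a median of -0.004, a 5th percentile of -0.35 and a 95th of 0.34. The count of 31 depended on single arrays. It was 20 with vector collagen replicate 2 left out, 19 and 20 with R132C collagen replicates 1 and 2 left out, and 79 (19 of them positive) with vector uncoated replicate 2 left out. All 31 genes kept a negative difference under every alternative in which they were measured, and 16 of them passed in every one. With values under each array's lower quartile raised to it, however, 5 dim genes had much smaller differences: Cadps -0.03 in place of -1.32, Gna14 -0.55 in place of -1.36, Ckmt1 -0.72 in place of -1.30, Tcf23 -0.82 in place of -1.58 and Lypd8 -1.10 in place of -1.71. Of these 5, Cadps and Tcf23 did not pass there. Of all 31 genes, 24 passed with low values raised, and 23 passed with only the 8 compared arrays in the model.

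**Figure D1:**
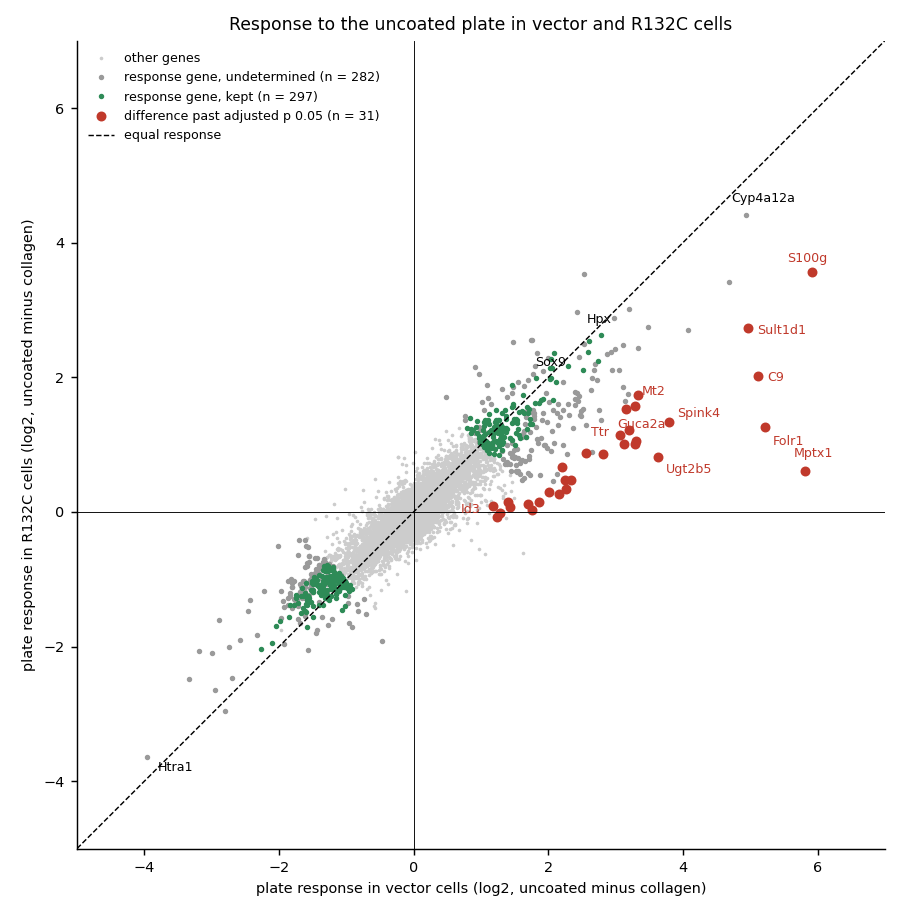
Response to the uncoated plate in vector cells (x axis, log2 change) and in R132C cells (y axis, log2 change) for 12393 genes, 1 point a gene, with a dashed line of equal responses. Red marks the 31 genes whose difference passed the test, green the 297 kept and dark grey the 282 undetermined response genes. The red points all lie under the line, with vector responses of 1.18 to 5.92.

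The promoters of the 5 genes with the largest differences that RefSeq's table for GRCm38.p6 holds are shown because these genes moved together. Each window runs 5′ to 3′ from 250 bases before to 50 bases after the start site. The windows lie at chr1:174330268-174330567 on the plus strand for Mptx1, chr15:6445096-6445395 on the plus strand for C9, chr5:87140291-87140590 on the minus strand for Ugt2b5, chrX:162964550-162964849 on the minus strand for S100g and chr4:119637482-119637781 on the plus strand for Guca2a. Capitals mark matches, on either strand, to short motifs of liver and gut factors: CAAAGTCCA and the looser CAAAGNNCA, which contains it, for HNF4A, TTNCNCAA for C/EBP, TGTTTAC for FOXA and CNATAAA for CDX, beside the HNF1 consensus, given by its name alone.
Mptx1: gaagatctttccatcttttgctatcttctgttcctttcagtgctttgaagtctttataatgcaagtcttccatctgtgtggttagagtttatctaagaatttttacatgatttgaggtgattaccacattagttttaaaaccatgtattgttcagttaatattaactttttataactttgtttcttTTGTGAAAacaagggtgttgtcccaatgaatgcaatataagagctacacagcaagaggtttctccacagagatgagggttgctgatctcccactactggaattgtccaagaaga
C9: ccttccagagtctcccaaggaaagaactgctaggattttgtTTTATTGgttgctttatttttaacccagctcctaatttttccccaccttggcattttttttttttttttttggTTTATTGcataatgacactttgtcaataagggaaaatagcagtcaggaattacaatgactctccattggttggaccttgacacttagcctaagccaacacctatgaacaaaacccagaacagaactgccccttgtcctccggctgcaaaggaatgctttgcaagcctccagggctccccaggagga
Ugt2b5: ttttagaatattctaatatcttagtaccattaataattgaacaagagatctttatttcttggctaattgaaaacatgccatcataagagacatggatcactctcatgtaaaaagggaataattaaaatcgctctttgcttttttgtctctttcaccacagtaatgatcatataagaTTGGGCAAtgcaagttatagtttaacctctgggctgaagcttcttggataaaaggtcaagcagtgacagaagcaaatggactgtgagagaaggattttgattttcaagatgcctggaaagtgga
S100g: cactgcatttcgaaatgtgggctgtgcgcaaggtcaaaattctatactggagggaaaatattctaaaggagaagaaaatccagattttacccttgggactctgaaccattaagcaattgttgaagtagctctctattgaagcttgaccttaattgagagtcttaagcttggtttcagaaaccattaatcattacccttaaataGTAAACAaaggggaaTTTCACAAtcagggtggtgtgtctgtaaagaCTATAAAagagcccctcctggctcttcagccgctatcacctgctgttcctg
Guca2a: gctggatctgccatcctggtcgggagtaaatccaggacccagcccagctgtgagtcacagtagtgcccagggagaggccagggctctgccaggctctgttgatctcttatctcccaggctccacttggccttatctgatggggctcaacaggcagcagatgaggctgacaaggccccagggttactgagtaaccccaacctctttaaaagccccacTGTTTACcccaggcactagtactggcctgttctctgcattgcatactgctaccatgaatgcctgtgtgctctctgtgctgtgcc

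Mptx1 held a C/EBP match at -64 from the start site, Ugt2b5 held one at -74 and S100g held one at -32. S100g also held a FOXA match at -47 and a CDX match at -1, Guca2a a FOXA match at -34, and C9 CDX matches at -209 and -136. None of the 5 windows held either HNF4A motif or the HNF1 motif. Of the 27 genes with a passing difference and an entry in the table, 4 held the C/EBP motif, 3 the FOXA motif, 5 the CDX motif, 1 the HNF1 motif, and 1 and 3 the strict and the looser HNF4A motif. Among all 32851 windows of the table the shares were 13.3%, 3.65%, 10.9%, 0.399%, 0.475% and 6.36%. A match is a run of letters and not a measured site.

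Genes best known from the intestinal mucosa were one group among the 31. Mptx1, a secreted pentraxin of the gut epithelium, had the largest difference of all genes. Mptx1 read log2 3.26 and 3.34 on collagen and 9.05 and 9.17 on uncoated plates in the vector cultures, and 3.47 and 3.40 and then 3.75 and 4.33 in the R132C cultures. It thus rose 56.3-fold in vector cells and 1.52-fold in R132C cells, a difference of -5.21 (SE 0.22, adjusted p = 6.99e-08), and the R132C cultures on uncoated plates stood only slightly above the collagen cultures. S100g, the vitamin D-dependent calcium carrier calbindin-D9k, behaved otherwise. S100g read log2 4.11 and 3.64 on collagen and 10.16 and 9.43 on uncoated plates in the vector cultures, and 4.12 and 4.06 and then 7.58 and 7.72 in the R132C cultures. It rose in both, 60.5-fold and 11.8-fold, with a difference of -2.36 (SE 0.35, adjusted p = 0.0109), and the uncoated R132C cultures lay well above every collagen culture and below both uncoated vector cultures.

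Spink4, a Kazal-type protease inhibitor of goblet cells, and Guca2a, which encodes guanylin, a peptide that activates guanylate cyclase C, followed. Spink4 read log2 4.63 and 4.63 on collagen and 8.35 and 8.48 on uncoated plates in the vector cultures, and 4.88 and 4.70 and then 5.91 and 6.33 in the R132C cultures. Guca2a read log2 5.01 and 5.19 on collagen and 8.76 and 8.02 on uncoated plates in the vector cultures, and 5.16 and 4.93 and then 5.95 and 6.16 in the R132C cultures. The vector cultures on uncoated plates stood above all others in both genes, and the R132C cultures there lay above the collagen cultures. The differences were -2.45 (SE 0.23, adjusted p = 0.000401) for Spink4 and -2.28 (SE 0.29, adjusted p = 0.00293) for Guca2a. Muc13, a transmembrane mucin, did not pass in R132C cells. Muc13 read log2 5.53 and 5.55 on collagen and 7.91 and 7.69 on uncoated plates in the vector cultures, and 5.56 and 5.62 and then 5.76 and 6.11 in the R132C cultures. Its difference was -1.92 (SE 0.19, adjusted p = 0.000416), and its probe set is of a kind (suffix _s_at) that can read more than 1 transcript. A further, dimmer probe set of Muc13 had a smaller difference of -0.66 (SE 0.16).

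Other mucosal genes with a passing difference were the chloride channel accessory protein Clca3a2 (2.17 in vector cells, 0.27 in R132C cells, difference -1.90, SE 0.26, adjusted p = 0.00574), the scavenger receptor-like mucosal protein Dmbt1 (2.00 in vector cells, 0.29 in R132C cells, difference -1.71, SE 0.21, adjusted p = 0.00212), Lypd8, a secreted protein of the colon epithelium (1.86 in vector cells, 0.14 in R132C cells, difference -1.71, SE 0.27, adjusted p = 0.0157), and the brush border protocadherin Cdhr5 (1.41 in vector cells, 0.15 in R132C cells, difference -1.26, SE 0.23, adjusted p = 0.0391). None of these 4 passed in R132C cells, and Cdhr5 was the nearest of all genes to the threshold on its inner side. In the list of 28 measured intestinal secretory and mucosal genes, 5 had a passing negative difference and 0 a positive one, where 0.25% of all genes did. In that list 12 rose in vector cells and 8 in R132C cells. For this and later lists, the shares of all genes that rose were 15.1% in vector and 13.6% in R132C cells, and 0.25% had a passing difference. At that share a list of such size would seldom hold a call, so a list with 0 calls shows little. At an unadjusted limma p under 0.05, 3.1% of all genes had a negative difference and 2.5% a positive one. The list's median difference was -0.06, against -0.004 over all genes. Only 13 of the 28 rose by the mean of both responses, and a gene that does not rise cannot show a smaller rise. The median therefore says little about the risers. Of the 9 with a mean rise of at least 2-fold, 5 had a passing negative difference. In 0 of the 9 did the 95% interval lie within 2-fold, and 4 met neither condition. At an unadjusted limma p under 0.05, 8 of the 28 had a negative difference and 1 a positive one. In the list of 22 Cdx factors and brush border genes, Cdhr5 passed, 9 genes rose in vector cells and 3 in R132C cells, and the median difference was -0.149. Cdx2, the intestinal homeobox factor, had responses of 1.73 and 0.56 and a difference of -1.18 (SE 0.29, adjusted p = 0.185), which did not pass. Villin, Vil1, a bundler of actin in microvilli, rose alike in both kinds of cell, by 2.08 and 2.36, with a difference of 0.28 (95% interval -0.18 to 0.75).

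**Figure D2:**
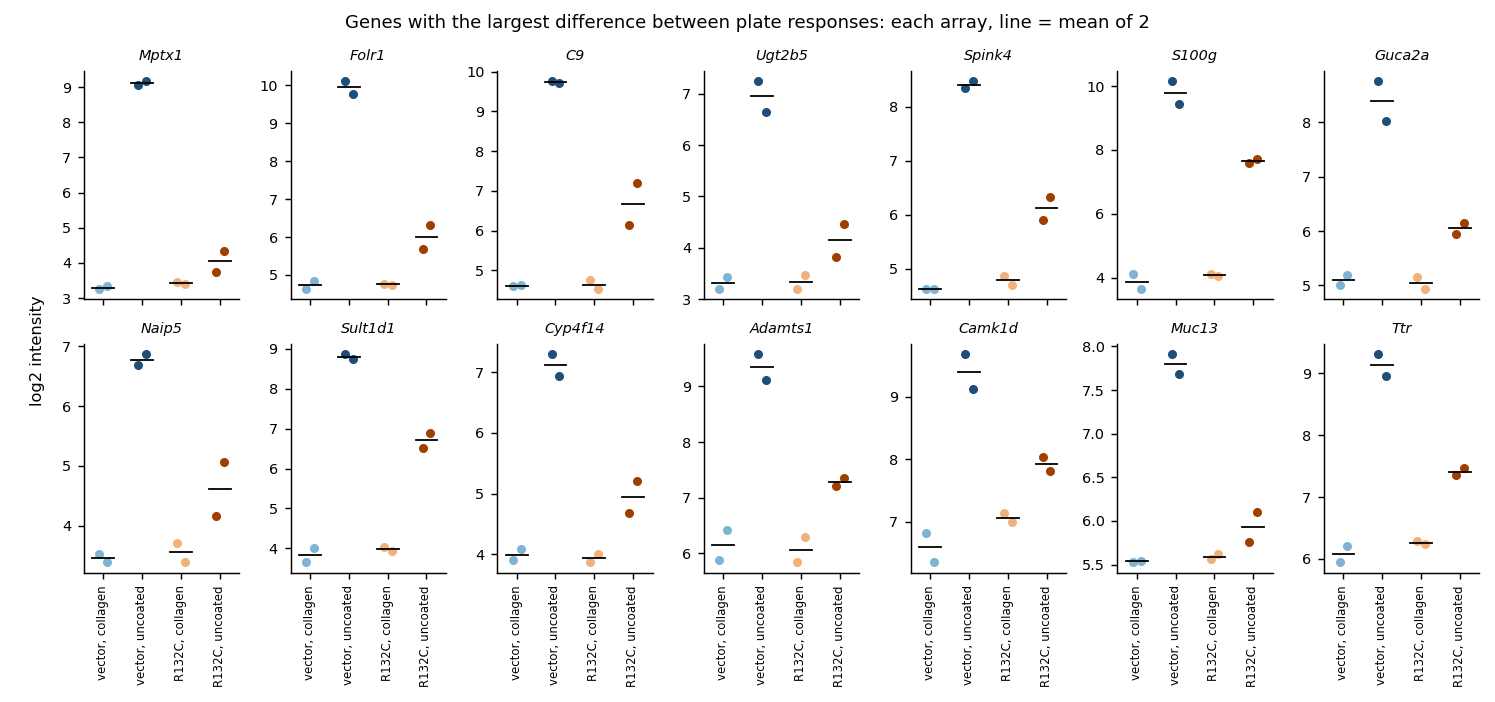
Log2 intensity (y axis, a separate scale in each panel that does not start at 0) of the 14 genes with the largest differences in each of the 8 arrays (x axis, cell kind and plate), with a line at the mean of the 2 arrays of a group. In each panel both uncoated vector arrays stand above both uncoated R132C arrays, and the 4 collagen arrays run from 3.26 to 3.47 for Mptx1 and from 6.35 to 7.14 for Camk1d.

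Enzymes that oxidise and conjugate were a second group. Here blunted genes stood beside members of the same families whose rises were alike within 2-fold or were left undecided. Ugt2b5, a glucuronosyltransferase, and Sult1d1, a cytosolic sulfotransferase, had the largest differences among them. Ugt2b5 read log2 3.20 and 3.43 on collagen and 7.25 and 6.65 on uncoated plates in the vector cultures, and 3.20 and 3.46 and then 3.83 and 4.47 in the R132C cultures. Sult1d1 read log2 3.66 and 4.01 on collagen and 8.86 and 8.74 on uncoated plates in the vector cultures, and 4.03 and 3.93 and then 6.52 and 6.90 in the R132C cultures. Sult1d1 rose 31.3-fold and 6.63-fold and Ugt2b5 12.4-fold and 1.77-fold, with differences of -2.24 (SE 0.22, adjusted p = 0.000416) and -2.82 (SE 0.31, adjusted p = 0.000808). Ugt2b5 has close paralogs, and whether its probe set reads only this gene was not tested. Cyp4f14, a fatty acid hydroxylase of the cytochrome P450 family, followed. Cyp4f14 read log2 3.90 and 4.09 on collagen and 7.30 and 6.94 on uncoated plates in the vector cultures, and 3.87 and 4.0 and then 4.68 and 5.21 in the R132C cultures. Its uncoated R132C cultures lay between the collagen cultures and the uncoated vector cultures, and its difference was -2.12 (SE 0.25, adjusted p = 0.00145). The phenol sulfotransferase Sult1a1 (2.34 in vector cells, 0.47 in R132C cells, difference -1.87, SE 0.19, adjusted p = 0.000722), the P450 enzyme Cyp2c65 (2.25 in vector cells, 0.47 in R132C cells, difference -1.77, SE 0.21, adjusted p = 0.00145) and the alcohol dehydrogenase Adh1 (1.76 in vector cells, 0.025 in R132C cells, difference -1.73, SE 0.28, adjusted p = 0.0178) also passed. The responses of Sult1a1 and Cyp2c65 in R132C cells were small, and that of Adh1 was close to zero.

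Of 31 measured Ugt, Sult and Gst genes, 3 had a passing negative difference, and 13 rose in each kind of cell. Among the 8 of them that rose at least 2-fold on average, 3 had a passing difference, 3 had a difference whose 95% interval lay within 2-fold in either direction, and 2 met neither condition. Mgst1, a microsomal glutathione transferase, had 2.87 and 2.34, with a difference of -0.53 (SE 0.76, adjusted p = 1), and Ugt2b34 had 3.14 and 1.65, with a difference of -1.49 (SE 0.31, adjusted p = 0.0882). Neither Mgst1 nor Ugt2b34 was shown to rise alike, and Ugt2b34 leaned the same way as Ugt2b5. Of 29 P450 enzymes, only Cyp4f14 passed in this list, and 8 rose in vector cells and 7 in R132C cells. Among them 5 had a negative difference at an unadjusted p under 0.05, as did 3.1% of all genes, and 0 a positive one. Cyp4b1 and Cyp3a13, both P450 enzymes of the endoplasmic reticulum, rose in both kinds of cell, with differences of -0.076 (95% interval -0.90 to 0.75) and -0.50 (-0.94 to -0.06). The interval of Cyp3a13 lay within 2-fold but on the side of a smaller rise in R132C cells. Cyp4a12a, a fatty acid omega-hydroxylase with some of the largest rises of all, had 4.93 and 4.41 and a difference of -0.52 with a wide interval of -1.48 to 0.44. The medians of the differences were -0.155 for the conjugating enzymes and -0.048 for the P450 enzymes. In the list of 23 alcohol and aldehyde dehydrogenases, Adh1 alone passed, and Aldh3a1 rose by 1.47 and 1.86 in the 2 kinds of cell.

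Among proteins that hepatocytes secrete, the rise of C9 and of transthyretin was blunted and that of most other risers was not called different. C9 forms the pore of the terminal complement complex. C9 read log2 4.61 and 4.62 on collagen and 9.77 and 9.71 on uncoated plates in the vector cultures, and 4.75 and 4.53 and then 6.15 and 7.19 in the R132C cultures. It rose 34.8-fold and 4.07-fold, with a difference of -3.10 (SE 0.35, adjusted p = 0.00104), and its 2 uncoated R132C cultures were about a log2 unit apart. Transthyretin, Ttr, carries thyroxine and retinol-binding protein. Ttr read log2 5.95 and 6.21 on collagen and 9.31 and 8.96 on uncoated plates in the vector cultures, and 6.29 and 6.23 and then 7.35 and 7.47 in the R132C cultures. Its uncoated R132C cultures lay close together, below both uncoated vector cultures and above all 4 on collagen, and its difference was -1.91 (SE 0.21, adjusted p = 0.000808). Further probe sets of Ttr rose more, by 6.10 and 6.12 in vector cells and by 3.65 and 3.41 in R132C cells, with differences of -2.45 and -2.71. In both genes the vector and R132C cultures on collagen differed little.

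Of 26 secreted hepatocyte proteins measured, only Ttr passed, 8 rose in each kind of cell, and the median difference was -0.036. Hemopexin, Hpx, the heme carrier of plasma, rose by 2.78 and 2.62 (difference -0.16, 95% interval -0.93 to 0.61), and ceruloplasmin, Cp, the copper ferroxidase, by 2.97 and 2.88. Fibrinogen beta, Fgb, had 3.06 and 2.11, a difference of -0.95 (SE 0.44, adjusted p = 0.911), whereas Ambp, the precursor of alpha-1-microglobulin, had 2.53 and 3.54, a difference of 1.01 (SE 0.46, adjusted p = 0.88). Of 23 complement genes, C9 alone passed and 7 rose in each kind of cell, with a median difference of -0.106. Cfb, complement factor B, had 1.76 and 2.55 and the inhibitor C4bp 2.43 and 1.77, so members of this list leaned both ways, and 4 of its genes had an unadjusted p under 0.05 with a negative difference and 2 with a positive one. None of 19 apolipoprotein and lipid transfer genes passed, with a median of -0.143. Fabp2, the intestinal fatty acid-binding protein, had responses of 1.33 and 0.018 (difference -1.31, SE 0.30, adjusted p = 0.141), and Apob, the core protein of lipoproteins, 1.15 and 1.21.

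The rest of the 31 had varied roles. Folr1, the folate receptor alpha, had the largest difference after Mptx1. Folr1 read log2 4.63 and 4.83 on collagen and 10.11 and 9.78 on uncoated plates in the vector cultures, and 4.75 and 4.74 and then 5.69 and 6.33 in the R132C cultures. It rose 37.3-fold in vector cells and 2.4-fold in R132C cells, with a difference of -3.96 (SE 0.29, adjusted p = 3.21e-05). It was the only one of 20 folate and one-carbon genes to pass. Abcg5, which with its partner exports sterols into bile, was the only one of 23 transporters (2.56 in vector cells, 0.87 in R132C cells, difference -1.69, SE 0.28, adjusted p = 0.0229). The partner, Abcg8, had responses of 0.21 and -0.15 and was called in neither kind of cell. The ectonucleotidase Entpd2, which hydrolyses extracellular ATP, rose in both kinds of cell (3.33 in vector cells, 1.73 in R132C cells, difference -1.60, SE 0.26, adjusted p = 0.018), as did the histidine-degrading enzyme Hal (3.15 in vector cells, 1.53 in R132C cells, difference -1.62, SE 0.17, adjusted p = 0.000733).

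Naip5, an intracellular sensor of bacterial flagellin, Adamts1, a secreted metalloprotease, and Camk1d, a calcium- and calmodulin-dependent kinase, were among the 14 largest as well. Naip5 read log2 3.54 and 3.40 on collagen and 6.69 and 6.87 on uncoated plates in the vector cultures, and 3.72 and 3.40 and then 4.17 and 5.07 in the R132C cultures. Adamts1 read log2 5.88 and 6.42 on collagen and 9.58 and 9.12 on uncoated plates in the vector cultures, and 5.84 and 6.3 and then 7.22 and 7.36 in the R132C cultures. Camk1d read log2 6.82 and 6.35 on collagen and 9.68 and 9.12 on uncoated plates in the vector cultures, and 7.14 and 6.99 and then 8.03 and 7.81 in the R132C cultures. In each of the 3 the uncoated vector cultures stood above the uncoated R132C cultures without overlap. Their differences were -2.25 (SE 0.36, adjusted p = 0.0157), -1.98 (SE 0.29, adjusted p = 0.0103) and -1.96 (SE 0.30, adjusted p = 0.0131). For Camk1d the R132C cultures on collagen already lay above both vector cultures on collagen, so its smaller rise started from a higher level.

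Mt2, a metallothionein that binds zinc and copper, and Id3, an inhibitor of basic helix-loop-helix factors, also began higher in R132C cells. Mt2 read log2 9.57 and 9.21 on collagen and 12.54 and 12.82 on uncoated plates in the vector cultures, and 10.04 and 10.39 and then 11.51 and 12.07 in the R132C cultures. Id3 read log2 8.63 and 8.60 on collagen and 9.97 and 9.62 on uncoated plates in the vector cultures, and 9.06 and 9.02 and then 9.08 and 9.18 in the R132C cultures. Mt2 rose in both, with a difference of -1.71 (SE 0.29, adjusted p = 0.0245), and Id3 had -1.09 (SE 0.16, adjusted p = 0.0112). All 4 R132C cultures of Id3 lay between 9.02 and 9.18, above the vector cultures on collagen and below those on uncoated plates. Id3 was the only one of 17 hepatoblast and fetal liver genes to pass. The remaining genes were the ribonuclease Rnase4 (2.20 in vector cells, 0.67 in R132C cells, difference -1.53, SE 0.23, adjusted p = 0.0103), the bHLH factor Tcf23 (1.70 in vector cells, 0.11 in R132C cells, difference -1.58, SE 0.26, adjusted p = 0.0188), the G protein subunit Gna14 (1.42 in vector cells, 0.066 in R132C cells, difference -1.36, SE 0.15, adjusted p = 0.00104), the mitochondrial creatine kinase Ckmt1 (1.28 in vector cells, -0.02 in R132C cells, difference -1.30, SE 0.21, adjusted p = 0.0161) and Cadps, which primes secretory vesicles (1.25 in vector cells, -0.071 in R132C cells, difference -1.32, SE 0.20, adjusted p = 0.0112). Of these 5, only Rnase4 rose in R132C cells.

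The 31 genes stood apart mainly on the uncoated plate. On collagen, none of the 31 genes was called different between R132C and vector cells by limma (0% of all genes, with 936 of 12393 at an unadjusted p under 0.05). Their R132C minus vector values there ran from -0.53 for Rnase4 to 0.83 for Mt2, with a median of 0.106, and 29 of the 31 were under 0.5 in size. On uncoated plates all 31 were lower in R132C cells, where 1.49% of all genes were, by log2 -0.66 to -5.07 with a median of -1.82. The uncoated arrays of the 2 kinds of cell did not overlap in any of the 31, nor in 47% of all genes. On collagen they did not overlap in 13 of the 31 (the share over all genes is not given here). For some genes part of the difference thus lay on collagen, as for Id3, with means of 8.62 in vector and 9.04 in R132C cells. These comparisons share their arrays with the difference itself and are given beside it only as its parts. The number of genes differing on uncoated plates, 296 in all, moved with single arrays: 178 on leaving out either R132C culture on collagen, 82 on leaving out vector uncoated replicate 1 and 71 on leaving out R132C uncoated replicate 1. On collagen it was 14 when vector collagen replicate 1 was left out.

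**Figure D3:**
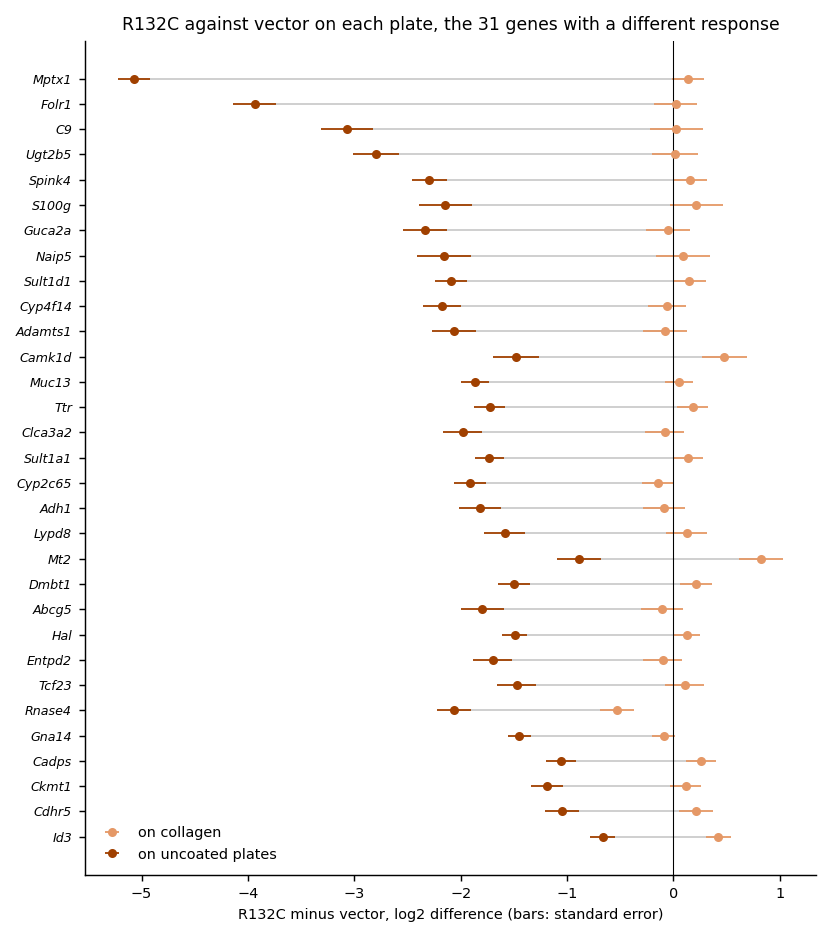
R132C minus vector level (log2) on collagen and on uncoated plates for each of the 31 genes whose plate responses differed, 1 row a gene, with bars of 1 standard error. Values on collagen run from -0.53 to 0.83 around zero, and those on uncoated plates from -5.07 to -0.66, all negative.

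Low levels bear on these folds. In vector cells on collagen 21 of the 31 genes had a mean at or under the lower quartile of 4.81, and 14 of them were at or under it in R132C cells on both plates, so the R132C response of such genes is measured close to background and their folds are not exact. Of the 31, 6 had further probe sets, 7 in all, and each of these 7 gave a negative difference as well, with 2 of them passing when all probe sets were tested singly. In bulk RNA, fewer cells that express such a gene and less RNA per cell cannot be told apart.

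To ask which part of the response was blunted, alike or larger, response genes were chosen by the mean of the vector and R132C responses, a measure that by design favours neither kind of cell. The mean response passed in 40.2% of genes, and 320 genes (2.58%) rose and 282 (2.28%) fell at least 2-fold. A response gene was called blunted or larger if its difference passed the test, and kept if the 95% interval of its difference lay within 2-fold in either direction. All others were undetermined, that is, neither shown to differ nor shown to be alike. Of the 320 rises, 23 were blunted (7.19%), 0 larger, 148 kept (46.2%) and 149 undetermined (46.6%). Of the 282 falls, 0 were blunted, 0 larger, 149 kept (52.8%) and 133 undetermined (47.2%). The 8 other genes with a passing difference, Adh1, Lypd8, Tcf23, Gna14, Cadps, Ckmt1, Cdhr5 and Id3, had a mean rise under 2-fold. Blunted rises numbered 38 without vector uncoated replicate 2, blunted falls then 8, and kept falls 81 without R132C uncoated replicate 2.

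Beneath these calls lay a smaller shift, with a median difference of -0.24 for rises and 0.34 for falls. It was about the size of the gap between the 2 uncoated R132C cultures over the same genes. That gap, replicate 2 minus replicate 1, had a median of 0.25 for rises and -0.33 for falls. Genes of a culture can move together, so the counts below are not independent evidence. Over all genes 50.9% of differences were negative, with 3.1% negative and 2.5% positive at an unadjusted limma p under 0.05. The median rise was log2 1.57 (2.96-fold) in vector cells and 1.25 (2.37-fold) in R132C cells, and 236 of 320 rises (73.8%) were smaller in R132C cells, 98 of them at an unadjusted p under 0.05 against 9 larger ones. The median fall was -1.41 (2.66-fold) and -1.09 (2.13-fold), and 237 of 282 falls (84.0%) were smaller, 46 at an unadjusted p under 0.05 against 1 larger. Among the kept genes the medians were closer, in part by the rule that defines them, at 1.28 and 1.23 for rises and -1.30 and -1.08 for falls. Within this class 96 of 148 rises (64.9%) were still smaller in R132C cells and 52 larger. Of the 149 kept falls, 121 (81.2%) were smaller and 28 larger. The blunted rises stood apart in size by the way they were called, with medians of 3.20 and 1.01. Of 52 rises whose collagen level was at or under the lower quartile, 15 were blunted, 4 kept and 33 undetermined. Of the 268 that started above it, 8 were blunted, 144 kept and 116 undetermined. Of 69 rises of at least 4-fold, 15 were blunted and 14 kept. The precision of the 2 classes differed: the median SE was 0.23 for kept and 0.34 for undetermined rises.

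Kept rises included genes of hepatocytes, of bile ducts and of metabolism. Hpx led them. Hpx read log2 7.96 and 8.96 on collagen and 11.31 and 11.16 on uncoated plates in the vector cultures, and 7.64 and 7.89 and then 10.27 and 10.51 in the R132C cultures. Its R132C cultures lay below the vector cultures on both plates, so a rise of like size ran from a lower start to a lower end. The same held for Vil1 and, within the 2-fold limit, for Cyp3a13. Klb, the co-receptor of the metabolic hormone FGF21, overlapped between the 2 kinds of cell on both plates. Klb read log2 5.69 and 6.35 on collagen and 8.85 and 8.38 on uncoated plates in the vector cultures, and 5.95 and 6.19 and then 8.37 and 8.53 in the R132C cultures. Its rises were 2.60 and 2.38 and its difference -0.22 (95% interval -0.84 to 0.39). Fbxo32, a ubiquitin ligase induced on starvation, rose by 2.51 and 2.11 (-0.86 to 0.065), Crebrf by 2.29 and 2.16 (-0.57 to 0.33) and the P450 enzyme Cyp2c68 by 2.04 and 2.28 (-0.35 to 0.83). Sox9, a factor of bile duct cells and progenitors, rose by 2.02 and 1.98, with a difference of -0.045 (-0.82 to 0.73). Sox9 read log2 7.04 and 7.67 on collagen and 9.22 and 9.54 on uncoated plates in the vector cultures, and 7.36 and 7.51 and then 9.05 and 9.77 in the R132C cultures. The levels of Sox9 overlapped between the 2 kinds of cell on both plates. Of 20 biliary markers none had a passing difference, 7 rose in each kind of cell, and of the 4 that rose at least 2-fold 3 were kept and 1 was undetermined. The median difference of this list was -0.0045 and changed its sign, to 0.0004, with cyclic loess.

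**Figure D4:**
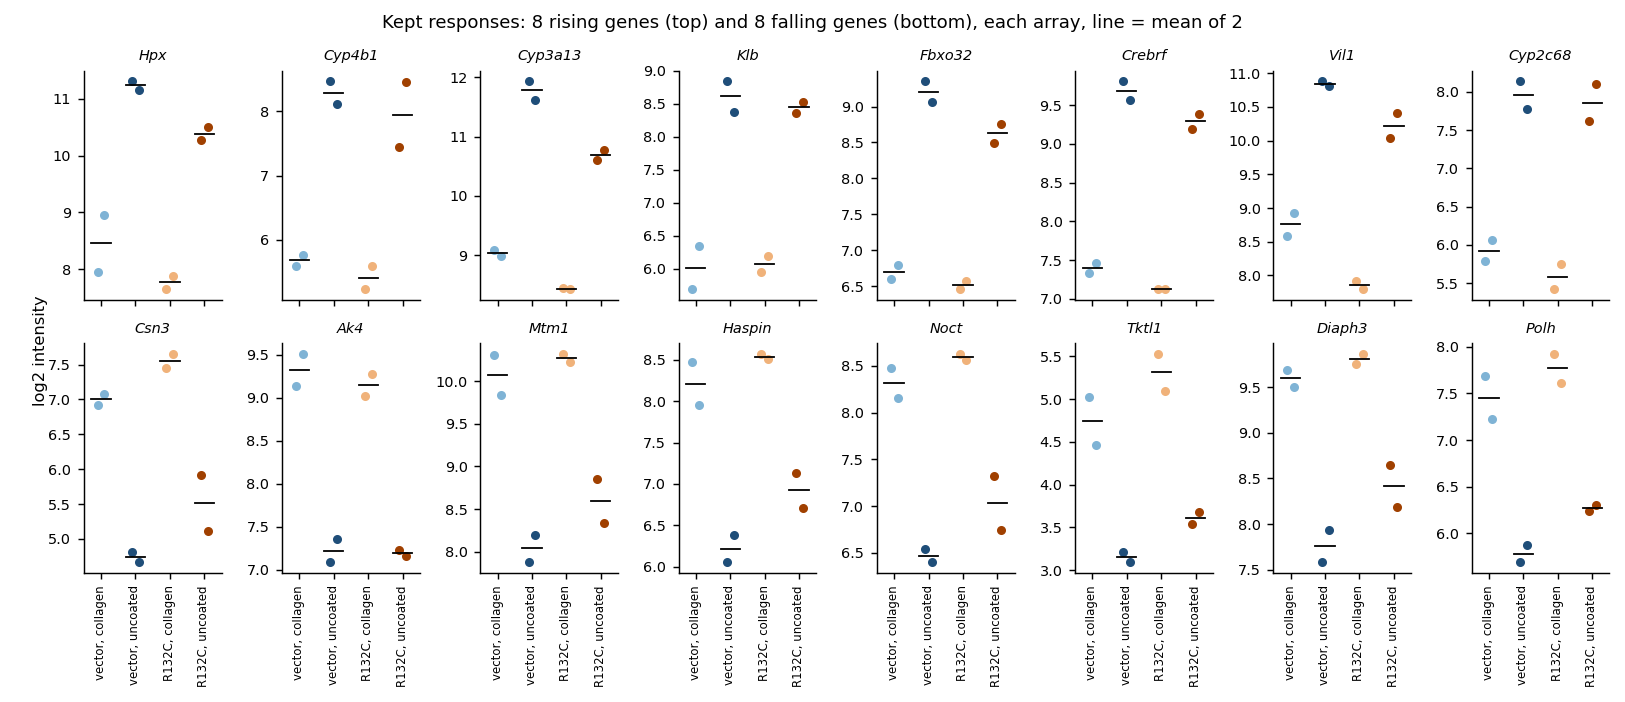
Log2 intensity (y axis, a separate scale in each panel that does not start at 0) of the kept genes with the largest mean responses in each of the 8 arrays (x axis, cell kind and plate), with a line at the mean of the 2 arrays of a group. Hpx rose by 2.78 in vector and 2.62 in R132C cells, and of the falling genes Ak4 fell by 2.10 and 1.95.

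The largest kept falls had log2 responses, in vector and R132C cells, as follows. Csn3, which encodes kappa-casein, had -2.26 and -2.04 (95% interval of the difference -0.43 to 0.88), the mitochondrial adenylate kinase Ak4 -2.10 and -1.95 (-0.57 to 0.87) and the lipid phosphatase Mtm1 -2.04 and -1.69 (-0.26 to 0.97). The mitotic histone kinase Haspin had -1.99 and -1.62 (-0.23 to 0.98), the formin Diaph3 -1.84 and -1.39 (-0.058 to 0.96), the circadian phosphatase Noct -1.85 and -1.56 (-0.23 to 0.81), the translesion polymerase Polh -1.67 and -1.50 (-0.35 to 0.69) and the transketolase-like Tktl1 -1.59 and -1.71 (-0.70 to 0.46). Of these 8, only Tktl1 fell further in R132C cells.

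Several of the strongest responses were undetermined. Serpinb1a, an intracellular protease inhibitor, rose by 4.68 and 3.42 (difference -1.26, 95% interval -2.24 to -0.28), and Lbp, the lipopolysaccharide-binding protein, by 4.07 and 2.71 (-1.37, -2.62 to -0.11). Sptssb, a subunit of serine palmitoyltransferase, rose by 3.19 and 3.01 (-1.09 to 0.73) and the tetraspan protein Tm4sf20 by 3.49 and 2.75 (-1.37 to -0.10). Among the falls, the secreted protease Htra1 had -3.96 and -3.64 (-0.44 to 1.09), the growth factor carrier Fgfbp1 -3.33 and -2.49 (0.15 to 1.54), the chemokine Ccl9 -3.19 and -2.06 (0.30 to 1.96), Bcl2l15 -2.95 and -2.64 (-0.51 to 1.13), the Wnt ligand Wnt7a -2.70 and -2.47 (-0.77 to 1.23) and the branched-chain aminotransferase Bcat1 -2.79 and -2.96 (-1.53 to 1.20). Every one of these 10 changed in the same direction in both kinds of cell, and the intervals of Serpinb1a, Lbp, Tm4sf20, Fgfbp1 and Ccl9 lay on the side of a smaller response in R132C cells.

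Several gene lists that fell on the uncoated plate had no member with a passing difference. All 30 measured mitotic genes fell in vector cells and 28 fell in R132C cells, where 14.2% and 12.3% of all genes fell. The difference was positive in 30 of 30, meaning a smaller fall in R132C cells, with a median of 0.459, medians of -1.42 and -0.981 for the responses, and 8 genes at an unadjusted p under 0.05. Over all genes 6082 of 12393 differences were positive. The median level of these 30 genes was log2 10.75 and 10.49 in the vector cultures on collagen, 9.08 and 9.38 on uncoated plates, and 10.84 and 10.79 and then 10.11 and 9.61 in the R132C cultures. The uncoated R132C cultures were both higher, but further from each other than the nearer one was from the vector cultures. The kinases Aurka (-1.58 and -1.39), Aurkb (-1.78 and -1.39) and Bub1 (-1.87 and -1.38) and the spindle factor Tpx2 (-1.65 and -1.12) led the list by mean response. Of 35 DNA replication genes, 34 and 30 fell, 33 had a positive difference, the median was 0.26, and 0 had an unadjusted p under 0.05. The origin protein Orc1 had responses of -1.66 and -1.28 and the helicase component Gins1 -1.64 and -1.25.

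Of 19 cholesterol synthesis genes, 17 fell in vector cells (14.2% of all genes) and 6 in R132C cells (12.3% of all genes). Their median difference was 0.536, with 18 of 19 positive, 1 at an unadjusted p under 0.05, none passing, and all 11 that fell at least 2-fold undetermined. The median level was 10.52 and 10.87 in vector cells on collagen, 9.29 and 9.85 on uncoated plates, and 10.54 and 10.84 and then 9.71 and 10.18 in R132C cells, so the uncoated cultures of the 2 kinds overlapped. Msmo1, a sterol demethylation enzyme, had -1.81 and -1.12 (difference 0.70, SE 0.56, adjusted p = 1), Cyp51 -1.83 and -1.20, Idi1 -1.83 and -1.25 and Lss, which makes lanosterol, -1.71 and -1.24. Of 28 AP-1, immediate early and ERK feedback genes, 18 fell and 2 rose in vector cells and 8 fell and 2 rose in R132C cells. Their median difference was 0.303, with 22 positive and 8 of those at an unadjusted p under 0.05 (2.5% of all genes). The AP-1 subunit Fos had -2.75 and -2.01 (difference 0.74, SE 0.39, adjusted p = 1) and Fosb -1.46 and -0.68. In this list the R132C cultures also started lower, at median levels of 10.02 and 10.00 on collagen against 10.23 and 10.25, and ended higher, at 9.75 and 9.83 against 9.34 and 9.51.

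Genes of the lysosome rose in 26 of 30 cases in vector cells (15.1% of all genes) and in 21 in R132C cells (13.6%). Of their differences 27 were negative, where 50.9% were over all genes, with a median of -0.147 and none passing. Hexa, the alpha subunit of beta-hexosaminidase, departed most, with 2.07 and 0.46 and a difference of -1.61 (SE 0.34, adjusted p = 0.0989). The cathepsin A gene Ctsa had 1.92 and 1.67 and the peptidase gene Tpp1 1.31 and 1.13. Among ATF4 response and serine synthesis genes the differences were measured with little precision. Mthfd2, a mitochondrial folate enzyme, had -1.93 and -1.97 (difference -0.037, 95% interval -1.28 to 1.21), Asns, which makes asparagine, -1.69 and -1.66 (0.036, -1.0 to 1.08), and Psph, the last enzyme of serine synthesis, -1.62 and -1.54 (0.077, -1.27 to 1.42). Cth, which makes cysteine from cystathionine, had the largest response of the list in vector cells, -2.58, and -1.90 in R132C cells, where it did not pass (difference 0.68, -1.46 to 2.82). The list's median difference was 0.071 with none passing of 29.

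**Figure D5:**
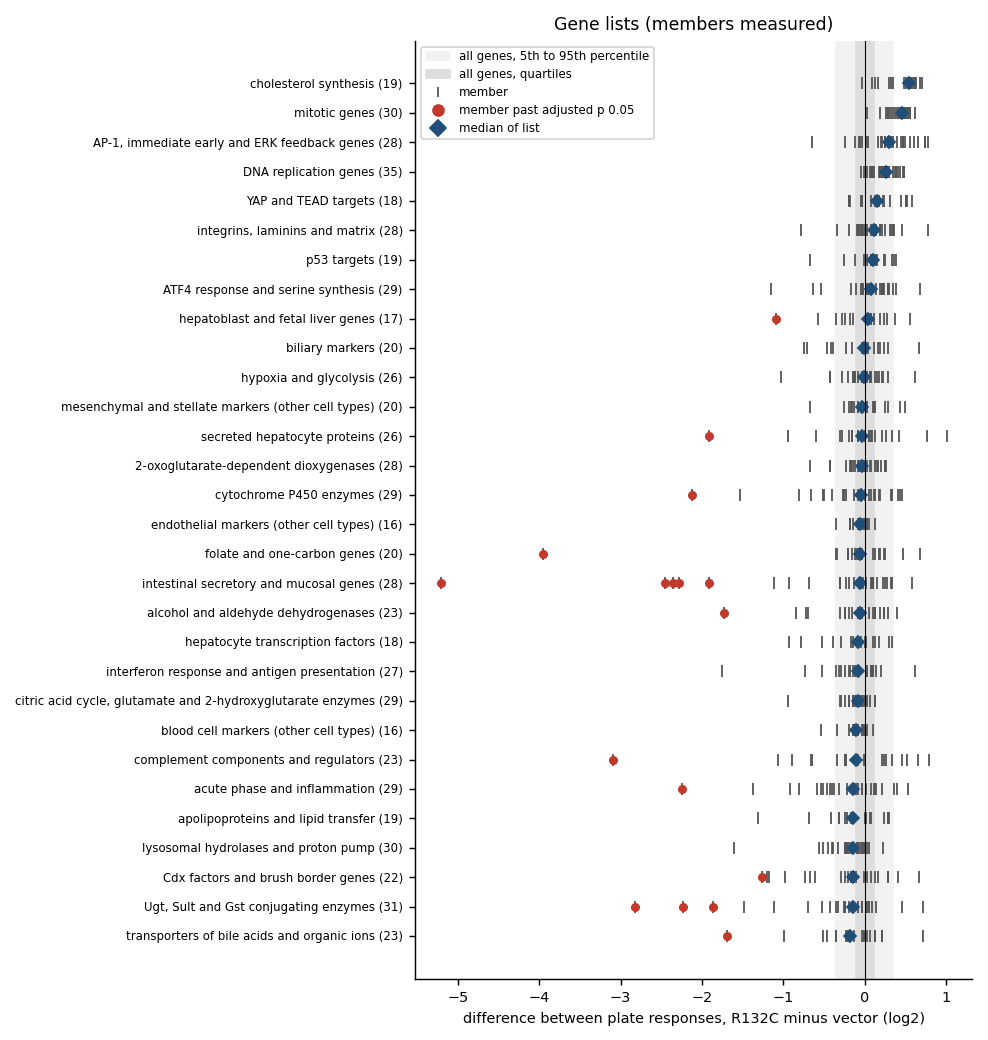
Difference between plate responses (x axis, log2, R132C minus vector) of the measured members of each gene list (rows) as ticks, those that passed the test as red points, the list's median as a diamond and the quartiles and 5th to 95th percentiles of all genes as shaded bands. The mitotic genes all lie above zero with a median of 0.459, and the intestinal secretory list has a median of -0.06 and a tail that reaches -5.21.

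Positive differences, where a fall was smaller or a rise larger with the mutant, were found without passing the test. Those with the largest size were Tenm4, a teneurin of cell adhesion (-2.01 in vector cells, -0.50 in R132C cells, difference 1.5, SE 0.41, adjusted p = 0.287), Lmcd1, a LIM domain cofactor (-1.47 in vector cells, -0.11 in R132C cells, difference 1.36, SE 0.27, adjusted p = 0.0816), the calcium-binding proteins S100a4 (-1.02 in vector cells, 0.33 in R132C cells, difference 1.36, SE 0.34, adjusted p = 0.2) and S100a14 (-1.18 in vector cells, 0.11 in R132C cells, difference 1.29, SE 0.30, adjusted p = 0.16) and the chemokine receptor Ackr3 (-2.89 in vector cells, -1.61 in R132C cells, difference 1.29, SE 0.30, adjusted p = 0.141). Pdlim2, a PDZ and LIM protein, followed (-1.30 in vector cells, -0.055 in R132C cells, difference 1.24, SE 0.28, adjusted p = 0.13), then Edil3, a secreted integrin ligand (0.91 in vector cells, 2.15 in R132C cells, difference 1.24, SE 0.40, adjusted p = 0.458), and the gel-forming mucin Muc5b (0.49 in vector cells, 1.71 in R132C cells, difference 1.22, SE 0.30, adjusted p = 0.188). Edil3 and Muc5b were the ones of these 8 that rose in R132C cells, whereas the others fell in vector cells. Of the 8, 7 passed under at least 1 alternative and Edil3 under none. Leaving out vector uncoated replicate 2 brought Tenm4 to 2.16, Lmcd1 to 1.65 and S100a4 to 1.77, past the threshold in each case. Leaving out R132C uncoated replicate 1 brought Muc5b to 1.62 and Pdlim2 to 1.59, and leaving out R132C uncoated replicate 2 brought Ackr3 to 1.71, which passed as well.

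The regulators of hepatocyte identity had no passing difference. Hnf4a had responses of 0.15 and 0.32. Hnf4a read log2 11.51 and 11.61 on collagen and 11.74 and 11.68 on uncoated plates in the vector cultures, and 11.24 and 10.98 and then 11.26 and 11.60 in the R132C cultures. Its levels were lower in the R132C than in the vector cultures on each plate, without overlap, and the difference of 0.17 had a 95% interval of -0.18 to 0.52. Cebpa, a C/EBP factor of hepatocytes, rose by 2.73 and 1.95. Cebpa read log2 6.34 and 6.12 on collagen and 8.84 and 9.07 on uncoated plates in the vector cultures, and 6.47 and 6.2 and then 8.04 and 8.54 in the R132C cultures. Its difference of -0.78 (SE 0.29, adjusted p = 0.661) had an interval of -1.40 to -0.15. Of 18 hepatocyte transcription factors, 6 rose in vector cells and 2 in R132C cells, none passed, and the median difference was -0.076; Nr1i2, the xenobiotic receptor PXR, had 1.28 and 0.35 (difference -0.93, SE 0.22, adjusted p = 0.153).

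Afp, the fetal albumin-like protein, had -1.39 and -0.83 (difference 0.56, interval -0.086 to 1.21), and Alb itself 0.32 and 0.13 at a level near background. The biliary keratins Krt7 and Krt19 had differences of 0.29 (-0.21 to 0.80) and 0.042 (-0.21 to 0.29), the cell cycle inhibitor Cdkn1a 0.23, and Idh1 and Idh2 0.056 and -0.31. The probe set for Idh1 need not read the insert, so its signal does not check the labels.

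Lists of stress, immune and metabolic genes held few or no calls. Of 29 acute phase and inflammation genes, Naip5 passed, and 13 rose in vector cells and 12 in R132C cells. At an unadjusted p under 0.05, 6 had a negative difference and 0 a positive one, where 3.1% and 2.5% of all genes did. None of 27 interferon and antigen presentation genes passed. Gbp2, an interferon-induced GTPase, came nearest, with 2.65 and 0.89 and a difference of -1.76 (SE 0.36, adjusted p = 0.0816). None passed among 26 hypoxia and glycolysis genes (median -0.006), 19 p53 targets (0.097), 18 YAP and TEAD targets (0.143), 28 genes of integrins, laminins and matrix (0.113), 29 of the citric acid cycle, glutamate and 2-hydroxyglutarate (-0.08) or 28 of 2-oxoglutarate-dependent dioxygenases (-0.04). Glutamine synthetase, Glul, had 1.54 and 0.59, with a difference of -0.95 (SE 0.18, adjusted p = 0.0561) just outside the threshold. Nearest outside it were Eno3 (0.57, adjusted p = 0.0517), Glul, the muscle-type fructose bisphosphatase Fbp2 (-1.57, adjusted p = 0.0579) and the diamine oxidase Aoc1 (-1.47, adjusted p = 0.058), and nearest inside were Cdhr5, Mt2 and Abcg5.

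Among markers of other cell types, 0 of 20 mesenchymal, 0 of 16 blood and 0 of 16 endothelial genes passed. As 0.25% of all genes passed, 0 calls in lists of this size shows little. Differences were negative in 11 of the mesenchymal, 13 of the blood and 12 of the endothelial markers, and in 50.9% of all genes. In these lists 0 had an unadjusted limma p under 0.05. Their summed intensities ran from 15526 to 16717 in vector and 16523 to 16819 in R132C cultures on uncoated plates for the mesenchymal list, from 4102 to 4493 and 3956 to 4744 for the blood list, and from 580 to 619 and 605 to 624 for the endothelial list. On collagen they were 18485 to 18874 and 18755 to 18962, 4239 to 4819 and 4828 to 5303, and 589 to 615 and 612 to 647. On uncoated plates 11 and 10 of the mesenchymal markers, among them Col3a1, Pdgfra and Dcn, and 10 and 10 of the endothelial ones, among them Pecam1, Cdh5 and Tie1, were at or under the lower quartile, as were 5 and 7 of the blood markers. Vim was high in every group, at 13.82 to 14.08. It supplied most of the summed mesenchymal intensity, so that sum mainly follows Vim and cannot show how many mesenchymal cells were present. Ptprc, the pan-leukocyte phosphatase, had responses of 1.73 and 1.19, from a level near background.

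The 2 cultures of a group differed in how far they had responded. On uncoated plates R132C replicate 2 stood above replicate 1 in 26 of the 31 genes with a passing difference (median gap 0.33), in 258 of the 320 rises and in 47 of the 282 falls, while over all genes it was higher in 50.3%. In vector cells on uncoated plates, replicate 1 stood above replicate 2 in 24 of the 31 (median gap 0.26), in 218 of the rises and in 67 of the falls. R132C replicate 2 and vector replicate 1 were thus the further-responding cultures of their groups across rises and falls alike. With R132C replicate 2 left out 36 genes passed and with replicate 1 left out 22, and with vector replicate 1 left out 23. With vector replicate 2 left out 79 passed, 19 of them with a positive difference. The days each culture spent on the uncoated plate are not in the labels, and their part was not tested.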

How the data were processed

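Total RNA of each culture had been labelled and hybridised to Affymetrix Mouse 430A 2.0 arrays. The submitters' processing notes name RMA (robust multi-array average), with no version, for the deposited values, which are the authors' probe set intensity. That intensity ran from 5.84 to 26770, hence on a linear scale although RMA commonly returns logs, and log2 of the deposited values was used throughout. RMA adjusts background and quantile-normalises, which fixes the arrays' distributions and compresses changes near background. Of 22690 probe sets, 64 were controls, 20380 carried 1 gene symbol in the platform's annotation, 691 carried several and 1555 none, and a gene took the probe set of highest mean over the 14 arrays among those naming it alone, for 12393 genes.

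A model of 7 group means over the 14 arrays was fitted in R 4.3.3 by limma 3.58.1 (lmFit, eBayes with an intensity trend; 7 residual and 5.67 prior degrees of freedom), without a replicate block, and the contrasts were drawn from it. A gene was called when its Benjamini-Hochberg adjusted p, over all genes, was under 0.05. Same-numbered replicates of vector and R132C cells deviated together within each plate, with correlations of 0.291 on collagen and 0.26 on uncoated plates. Between plates, vector on collagen with uncoated R132C gave 0.224, and the other pairs of groups gave -0.022 to 0.00352. As this did not hold in every pair, the numbers were not used to pair cultures in the main model. Gene lists are described by counts and medians only.

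The members, lists and tests were chosen with earlier results of these data known. Genes named are every gene that passed (with each array for the 14 of largest difference), up to 8 with the most positive differences at an unadjusted p under 0.01, up to 8 kept rises and falls and 6 undetermined ones with the largest mean response, up to 4 members of each list by difference and 4 by mean response, and a fixed set of regulators, leaving out predicted genes. Lists' other members appear as counts. Genes next to the threshold were named after their values were seen. Alternatives were every probe set, the mean of probe sets, genes above the 30th percentile, values under each array's lower quartile raised to it, cyclic loess, median centring, no trend, the 8 arrays alone, array weights, a replicate block, all 6 non-mutant collagen arrays as the vector control, other class rules and each array left out; leaving out both R172K arrays was added after seeing the data.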

Additional observations from a re-analysis of the deposited data

Results flagged for a closer look

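For 31 genes the response to the uncoated plate differed between R132C and vector cells by a test of the difference itself (the interaction of cell kind and plate, limma with Benjamini-Hochberg adjustment over 12393 genes). On the log2 scale, R132C minus vector, the differences were Mptx1 (-5.21), Folr1 (-3.96), C9 (-3.10), Ugt2b5 (-2.82), Spink4 (-2.45), S100g (-2.36), Guca2a (-2.28), Naip5 (-2.25), Sult1d1 (-2.24), Cyp4f14 (-2.12), Adamts1 (-1.98), Camk1d (-1.96), Muc13 (-1.92), Ttr (-1.91), Clca3a2 (-1.90), Sult1a1 (-1.87). The others, all smaller in size, were Cyp2c65 (-1.77), Adh1 (-1.73), Lypd8 (-1.71), Mt2 (-1.71), Dmbt1 (-1.71), Abcg5 (-1.69), Hal (-1.62), Entpd2 (-1.60), Tcf23 (-1.58), Rnase4 (-1.53), Gna14 (-1.36), Cadps (-1.32), Ckmt1 (-1.30), Cdhr5 (-1.26) and Id3 (-1.09). Groups of 2 arrays are too small for a test of outlying samples.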

How the results depend on the processing

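The 31 differences kept their sign throughout, and 16 passed in every alternative in which they were measured (C9, Folr1, Guca2a, Muc13, Spink4 and Ttr in 20 of 20, the others in 19 of 19). Genes with 19, Mptx1 among them, were too dim for the filter at the 30th percentile of level and were not tested under it. Cdhr5 passed in 8 and Mt2 in 10 of 20 and, with low values raised, Cadps came to -0.03 and Gna14 to -0.55. The cause of each change below was not tested. Above the 30th percentile of level only 13 of the 31 were still measured, as 21 of the 31 start near background. Of these 13, 11 passed, and no other gene did. The count of 31 became 55 with array weights, 54 with the replicate number as a block and 114 with all 6 non-mutant collagen arrays as the vector control. Positive differences, 0 in the main result, then numbered 7, 5 and 29, and were 2 with every probe set, 1 with the mean of probe sets, 2 with low values raised and 4 without the R172K arrays. R132C against vector on collagen, 0 genes, became 10 with weights, 33 with the block and 147 with 6 collagen arrays, and on uncoated plates 296 became 184 with low values raised, 505 with the block and 502 with 6 collagen arrays. Blunted rises, 23, became 10 above the 30th percentile, 46 with 6 collagen arrays and 13 when response genes were chosen in R132C cells, and blunted falls, 0, became 1 with weights, 1 with the block and 7 with 6 collagen arrays. The share called kept follows its definition: kept rises and falls numbered 674 and 606 for responses of at least 1.5-fold, 2219 and 2198 for any size, and 40 and 25 with a margin of 1.5-fold, with 251 and 214, 284 and 246, and 257 and 257 undetermined; undetermined falls chosen in R132C cells numbered 86. Leaving out 1 array at a time gave 19 to 79 differences (0 to 19 positive), 2293 to 3484 genes for the vector response (main 3628), 1660 to 3194 for the R132C response (main 3215), 4192 to 4628 for the mean response, 0 to 14 on collagen, 71 to 309 on uncoated plates, 16 to 38 blunted rises, 0 to 8 blunted falls, 0 to 1 larger responses, 81 to 216 kept falls, 149 to 196 undetermined rises and 95 to 193 undetermined falls. The vector response was lowest without vector collagen replicate 1 and R132C's without R132C uncoated replicate 2. Same-numbered cultures deviated together in 3 of 6 pairs of groups (r = 0.224 to 0.291), among them both pairs on the same plate. They did not in the other 3 (-0.022 to 0.00352), and the numbers were not taken to pair them. With 2 arrays a group and 1 plate time, small differences between strong responses were not detectable, and for genes near background on collagen the intensity over background limits every fold.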

Other observations

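Collagen levels of the 31 genes in all 5 kinds of cell are given beside the differences. The 10 collagen arrays held, besides vector and R132C, wild-type IDH1, wild-type IDH2 and IDH2 R172K. Over these arrays the genes had ranges from 0.27 for Adh1 to 1.38 for Mt2 on the log2 scale. Mptx1 lay between 3.26 and 3.63 and Folr1 between 4.56 and 4.99 in every one. In vector cells on collagen 21 of the 31 genes were at or under the lower quartile of 4.81. For genes so near background a narrow range cannot show that the forms of IDH left them unchanged. Mt2 was log2 10.22 ± 0.25 with R132C (mean ± SD, n = 2, as for each value that follows), against 9.39 ± 0.26 with vector, 9.05 ± 0.056 with wild-type IDH1, 9.29 ± 0.36 with wild-type IDH2 and 9.35 ± 0.09 with R172K. Id3 was 9.04 ± 0.023 with R132C and 9.25 ± 0.03 with R172K, against 8.62 ± 0.018, 8.70 ± 0.04 and 8.67 ± 0.11 with vector, wild-type IDH1 and wild-type IDH2. Rnase4 was 8.56 ± 0.1 and 8.66 ± 0.12 with the mutants, against 9.10 ± 0.24, 9.13 ± 0.17 and 9.08 ± 0.27. These 3 genes were chosen after their values were seen and were not tested.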
